A study of Mus musculus with 4 samples.

Results

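Fgf4, Fgf8, Fgf9 and Fgf17 are the 4 fibroblast growth factor (FGF) genes known to be expressed in the apical ectodermal ridge, the strip of thickened epithelium along the tip of the limb bud. They were taken by name, as 4 of 21532 protein-coding genes with a located start site, and their surroundings were read from 2 lists of accessible chromatin regions. Each window holds 100 kb on either side of the gene's start site, and the Fgf8 window also holds chromosome 19 from 45740000 to 46000000. In the E10.5 list 92 of 99356 regions fell in the 4 windows, and in the E11.5 list 49 of 37413 did. Fgf4 (chr7:144861386-144865245) and Fgf9 (chr14:58070671-58112854) lie on the plus strand of mm10, and Fgf8 (chr19:45736491-45742941) and Fgf17 (chr14:70636203-70642268) on the minus strand.

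The lists come from ATAC-seq, in which the Tn5 transposase cuts and tags DNA where chromatin is accessible, on cells of wild-type mouse limbs, forelimb and hindlimb together. There were 2 replicates at embryonic day 10.5 (E10.5) and 2 at E11.5 by the sample titles, while the protocol writes E10 for the younger embryos. Cells were freed with trypsin and fixed in paraformaldehyde, and the labels give no strain, no number of embryos, no treatment beyond this and no separation of ectoderm from mesenchyme. A list covers the pair of replicates of a stage jointly, so there is no spread between replicates and no test between stages, and differences below are between 2 lists whose sequencing depth is unknown.

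As background, ridge FGFs are secreted ligands that act on FGF receptors in the underlying mesenchyme, where they keep cells alive and proliferating and sustain Shh at the posterior margin. Fgf8 marks the whole ridge, whereas Fgf4, Fgf9 and Fgf17 are known from its posterior and distal part. Mesenchymal Fgf10 acts back on the ridge, and the ridge makes up a small share of the cells of a whole limb bud. In such a mixture, fewer cells of a type and less accessible chromatin per cell cannot be told apart.

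The promoter sequences below are shown because the 2 lists part at these bases. They are the 250 bases before the start site that RefSeq gives on GRCm38.p6, the assembly behind mm10, all on the plus strand. Of the 4 genes 2, Fgf4 and Fgf9, matched the promoter table, and Fgf3 is added as the ligand gene next to Fgf4. Capitals mark every match, on either strand, to a motif searched. These were the TATA box TATAAA, the CCAAT box, the GC box GGGCGG bound by SP factors, the LEF/TCF motif CTTTGAT, the homeodomain motif TAATTA, the GATA factor motif GATAA and, added after the sequences had been seen, TATATA.
Fgf4, chr7:144861136-144861385: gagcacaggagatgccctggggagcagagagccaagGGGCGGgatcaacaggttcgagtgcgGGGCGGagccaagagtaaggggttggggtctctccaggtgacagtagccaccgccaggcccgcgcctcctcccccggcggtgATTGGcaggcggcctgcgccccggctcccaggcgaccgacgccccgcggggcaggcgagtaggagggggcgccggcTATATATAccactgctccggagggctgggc
Fgf9, chr14:58072436-58072685: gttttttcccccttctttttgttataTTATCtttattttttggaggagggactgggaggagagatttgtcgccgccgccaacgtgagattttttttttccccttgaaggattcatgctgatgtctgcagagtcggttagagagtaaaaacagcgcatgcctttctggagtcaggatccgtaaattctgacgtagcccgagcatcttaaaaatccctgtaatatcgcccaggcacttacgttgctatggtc
Fgf3, chr7:144838362-144838611: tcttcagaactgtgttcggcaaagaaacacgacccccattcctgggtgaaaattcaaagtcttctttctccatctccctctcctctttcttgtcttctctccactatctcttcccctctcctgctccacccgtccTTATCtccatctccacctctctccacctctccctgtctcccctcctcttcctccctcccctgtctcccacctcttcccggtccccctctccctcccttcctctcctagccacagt

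All 250 bases of each stretch lay inside an E10.5 region. At E11.5 the covered bases were 0 for Fgf4, 0 for Fgf9 and 32 for Fgf3. The Fgf4 stretch had a GC content of 71.2% and 21 CG dinucleotides, against a median GC content of 52.4% (quartiles 45.2 and 61.2%) over the 32851 promoters of the table. Fgf9 had 44.8% and 11 CG dinucleotides, and Fgf3 55.2% and 4, with a median of 6 over the table. The Fgf4 stretch held GGGCGG starting 214 and 188 bases before the start site, CCAAT on the minus strand from base 106 and overlapping TATATA matches from bases 30 and 28. GGGCGG occurred on either strand in 32.7% of all promoters of this length, CCAAT in 33.8% and TATATA in 5.25%. Fgf9 and Fgf3 each held 1 GATAA on the minus strand, a motif found in 22.6% of promoters. None of the 3 stretches held the TATA box, LEF/TCF or homeodomain motif as spelled above, which occurred in 12.4%, 3.21% and 4.84% of promoters.

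All 4 genes had a promoter region, meaning a region within 1 kb of the start site, in the E10.5 list, where 66.2% of protein-coding genes had one. In the E11.5 list only Fgf9 did, where 59.9% of protein-coding genes had one. Of all genes with an E10.5 promoter region, 89.9% also had one at E11.5, and here this was 1 of 4. The strength of a region is given by the authors' signal value and by its rank in its own list, where rank 1 is the strongest.

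Fgf9 had the strongest promoter region of the 4. At E10.5 it spanned 58069995 to 58073047 on chromosome 14, was 3053 bp wide and had a signal of 7023, rank 5074 of 99427 peaks. At E11.5 it spanned 58070456 to 58072394, was 1939 bp wide and had a signal of 2385, rank 8962 of 37548. The summits of both regions lay 1.48 kb downstream of the outer start of the gene, and RefSeq's promoter table places a start site 2015 bp downstream of that outer start. The E10.5 region covered both starts, and the E11.5 region stopped before the 250 bases printed above.

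Fgf8, the ligand of the whole ridge, had a promoter region at 45740943 to 45743891 on chromosome 19 at E10.5, with a signal of 2637 and rank 20801, its summit 69 bp inside the gene. It was 2949 bp wide, against a median of 1424 bp for E10.5 promoter regions. Its signal per bp was 0.89, against a median of 2.89 for promoter regions and 1.48 for the list. The region was therefore among the top 20.9% of its list by signal value, at 48.8% by −log10 p (5.46) and at 80.8% by signal per bp. It had no E11.5 overlap.

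Fgf17 had 3 E10.5 promoter regions on chromosome 14. The region over the start site, 70641679 to 70642462, had a signal of 523 and rank 65154. Inside the gene, 70639798 to 70641429 had a signal of 2170 and rank 24791, and upstream of the gene 70643102 to 70643758 had a signal of 454 and rank 69901. The strongest of them was thus 839 bp away from the start site, and none overlapped an E11.5 region. The regions at 839 and 834 bp lay just inside the limit of 1 kb, and the next one upstream, at 2219 bp with a signal of 301, outside it.

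Fgf4 had the weakest promoter region of the 4. It spanned 144861004 to 144861971 on chromosome 7, with a signal of 316, rank 82591 and a −log10 p of 3.24. Its signal per bp of 0.33 put it at 99.8% of the list, close to the lowest of all E10.5 peaks. It had no E11.5 overlap.

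**Figure D1:**
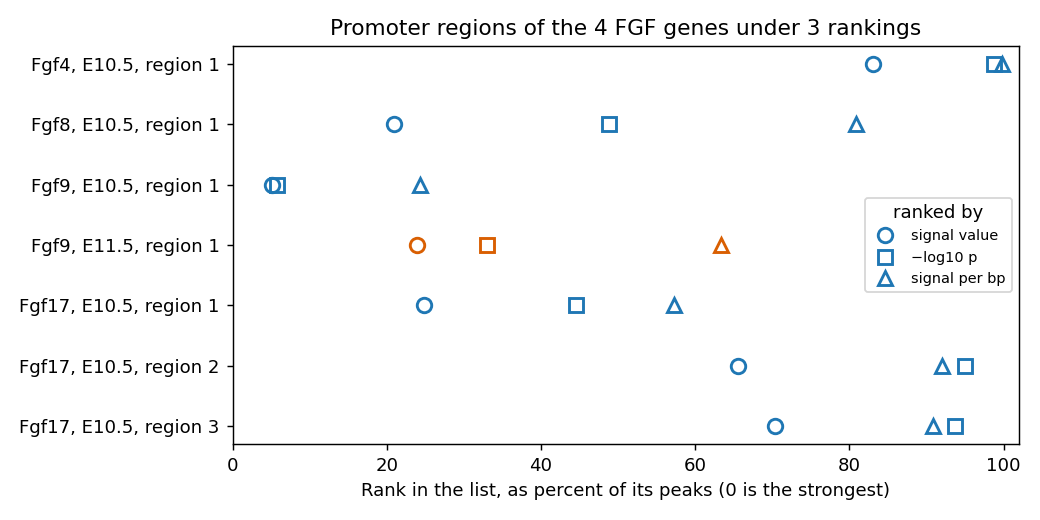
Rank of each promoter region of the 4 genes in its own list, as percent of that list's peaks from the strongest (0) to the weakest, ranked by signal value (circles), −log10 p (squares) and signal per bp (triangles), E10.5 in blue and E11.5 in orange. The Fgf9 region stands at 5.1 to 24.3% at E10.5, and the Fgf8 region moves from 20.9 to 80.8% with the ranking.

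How often promoter regions of like strength recurred at E11.5 differed between the genes. In the decile of E10.5 promoters with the signal of the Fgf4 region, 36.1% of 1427 genes also had an E11.5 promoter region. For the decile of Fgf17 it was 81.1% of 1426 genes, for that of Fgf8 93% and for that of Fgf9 98.2%. The Fgf17 decile rests on its strongest region (signal 2170), 839 bp from the start site, and not on the one over it (signal 523). By −log10 p, Fgf4, Fgf8 and Fgf17 all fell in the lowest decile, of which 35.1% recurred, and Fgf9 in a decile of which 99% did. Whether Fgf8 and Fgf17 stood among promoters that mostly recurred thus changed with the measure of strength. When only the strongest E10.5 peaks by −log10 p were kept, as many as the E11.5 list holds, 1 of the 4 genes, Fgf9, kept an E10.5 promoter region. When they were kept by signal, 3 did, all but Fgf4, with Fgf17 kept through the region 839 bp from its start site. At equal list length, whether Fgf8 and Fgf17 had a promoter region at E10.5 thus depended on the measure of strength. For their absence at E11.5, depth and stage cannot be told apart.

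The nearest E11.5 region lay 3509 bp from the Fgf8 start site, 4843 bp from that of Fgf17 and 22333 bp from that of Fgf4. Within 100 kb of the start sites there were 27 E10.5 regions for Fgf4, 26 for Fgf8, 22 for Fgf17 and 11 for Fgf9. The median over all protein-coding genes was 10 (quartiles 4 and 17), and 6.46% of genes had as many as Fgf4 or more, 7.78% as many as Fgf8. At E11.5 the counts were 16 for Fgf4, 8 for Fgf8, 17 for Fgf17 and 7 for Fgf9, with a median of 5 (quartiles 2 and 8). As many E11.5 regions as around Fgf17 or more were found around 3.63% of genes, and as many as around Fgf8 around 27.6%. Fgf8 thus stood above the upper quartile of genes at E10.5 and on it at E11.5, and Fgf9 lay between the quartiles in both lists.

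**Figure D2:**
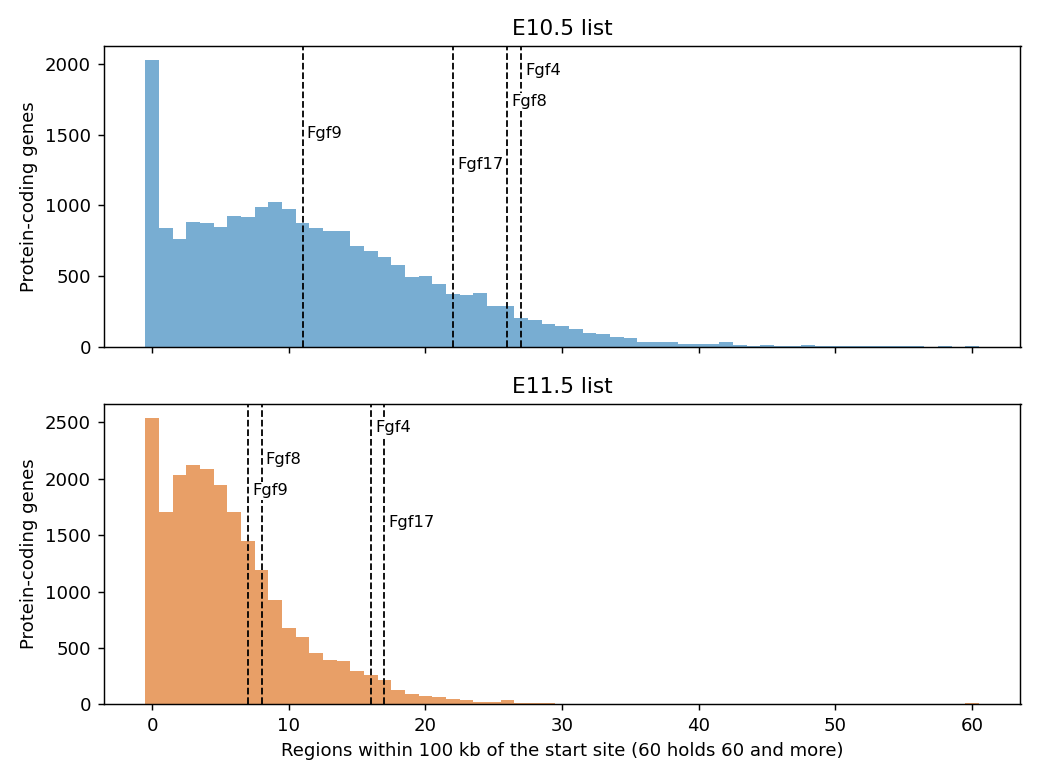
Number of protein-coding genes (y axis) by the number of regions within 100 kb of their start site (x axis) in the E10.5 (top) and E11.5 (bottom) list, with dashed lines at the 4 FGF genes. Fgf4, Fgf8 and Fgf17 lie to the right at E10.5 with 27, 26 and 22 regions, and Fgf8 falls back to 8 at E11.5.

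In the Fgf8 window, which spans 357 kb with the added interval, the E10.5 list had 32 regions and the E11.5 list 9. At E10.5, 9 of them shared at least 1 bp with the other list (28.1%, 95% Wilson interval 15.6 to 45.4%), against 32.3% of the whole list. All 9 regions of E11.5 did so in turn (lower bound 70.1%), against 91.8% of that list. Promoters of neighbouring genes carried most of this overlap. They held 6 E10.5 regions, of which 5 overlapped, where 86% of all E10.5 promoter regions did. They also held 5 of the E11.5 regions. Among the 25 distal E10.5 regions, over 1 kb from any protein-coding start site, 4 overlapped (16%, 6.4 to 34.7%), where 23.5% of all distal E10.5 regions did.

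The strongest E10.5 region of the Fgf8 window, 45782514 to 45784486, lay at the promoter of Oga, which encodes the enzyme that removes O-linked N-acetylglucosamine from proteins. It had a signal of 8904 (rank 2731, at 2.75% of the E10.5 list). Its E11.5 partner, 45782507 to 45784351, had one of 4861 (rank 3022, at 8.05% of the E11.5 list). Next came the promoters of Fbxw4, an F-box protein gene (45659010 to 45660774, signal 5235), and Armh3 (45997667 to 45998978, signal 4769). Their E11.5 partners had signals of 1980 and 2418. The remaining E11.5 promoter regions belonged to Npm3, a nucleoplasmin-family histone chaperone gene (45748869 to 45749955, signal 995), and to Kcnip2, which encodes a potassium channel-interacting protein (45815808 to 45816417, signal 643).

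Away from promoters, the strongest E10.5 region of the Fgf8 window was at 45725407 to 45726481, between genes and 17.1 kb downstream of the Fgf8 start site, with a signal of 4164 (rank 12741) and a −log10 p of 10.34. Its E11.5 partner, 45725717 to 45726117, had a signal of 275 (rank 31790). The region at 45745719 to 45747779, 3.61 kb upstream of Fgf8 and reaching into Npm3, had a signal of 3319 at E10.5, and its E11.5 partner was 187 bp wide with a signal of 254. In Kcnip2, 45795683 to 45796451 had a signal of 866 and its partner 296. All 3 stood lower in the E11.5 list than in the E10.5 list by signal.

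One distal region did not follow this order. The region at 45649926 to 45650258 in Fbxw4, 92.8 kb downstream of the Fgf8 start site, had a signal of 1048 (rank 43037, at 43.3%) in the E10.5 list. In the E11.5 list it had one of 1415 (rank 13036, at 34.7%) and was the strongest distal region of the window. Its width was 333 bp in the E10.5 list and 344 bp in the other, and its −log10 p was 7.27 and 8.77.

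Within 10 kb of the Fgf8 start site, regions over the 3′ end of the gene (45736525 to 45737848, signal 2684, rank 20433) and just beyond it (45734328 to 45735934, signal 1233) were found at E10.5 without E11.5 overlap. The Npm3 promoter had an E10.5 signal of 2226. The gene body of Fgf8 and its promoter thus held 2 E10.5 regions and no E11.5 region. A further E10.5 region without overlap lay 25.2 kb downstream, at 45717523 to 45718357, with a signal of 2192. The 21 distal E10.5 regions of this window without overlap had signals of 211 to 2684, beside a median of 703 for all distal E10.5 regions. Most of the weak ones lay far upstream in Armh3 or in the stretch between Fbxw4 and Fgf8.

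**Figure D3:**
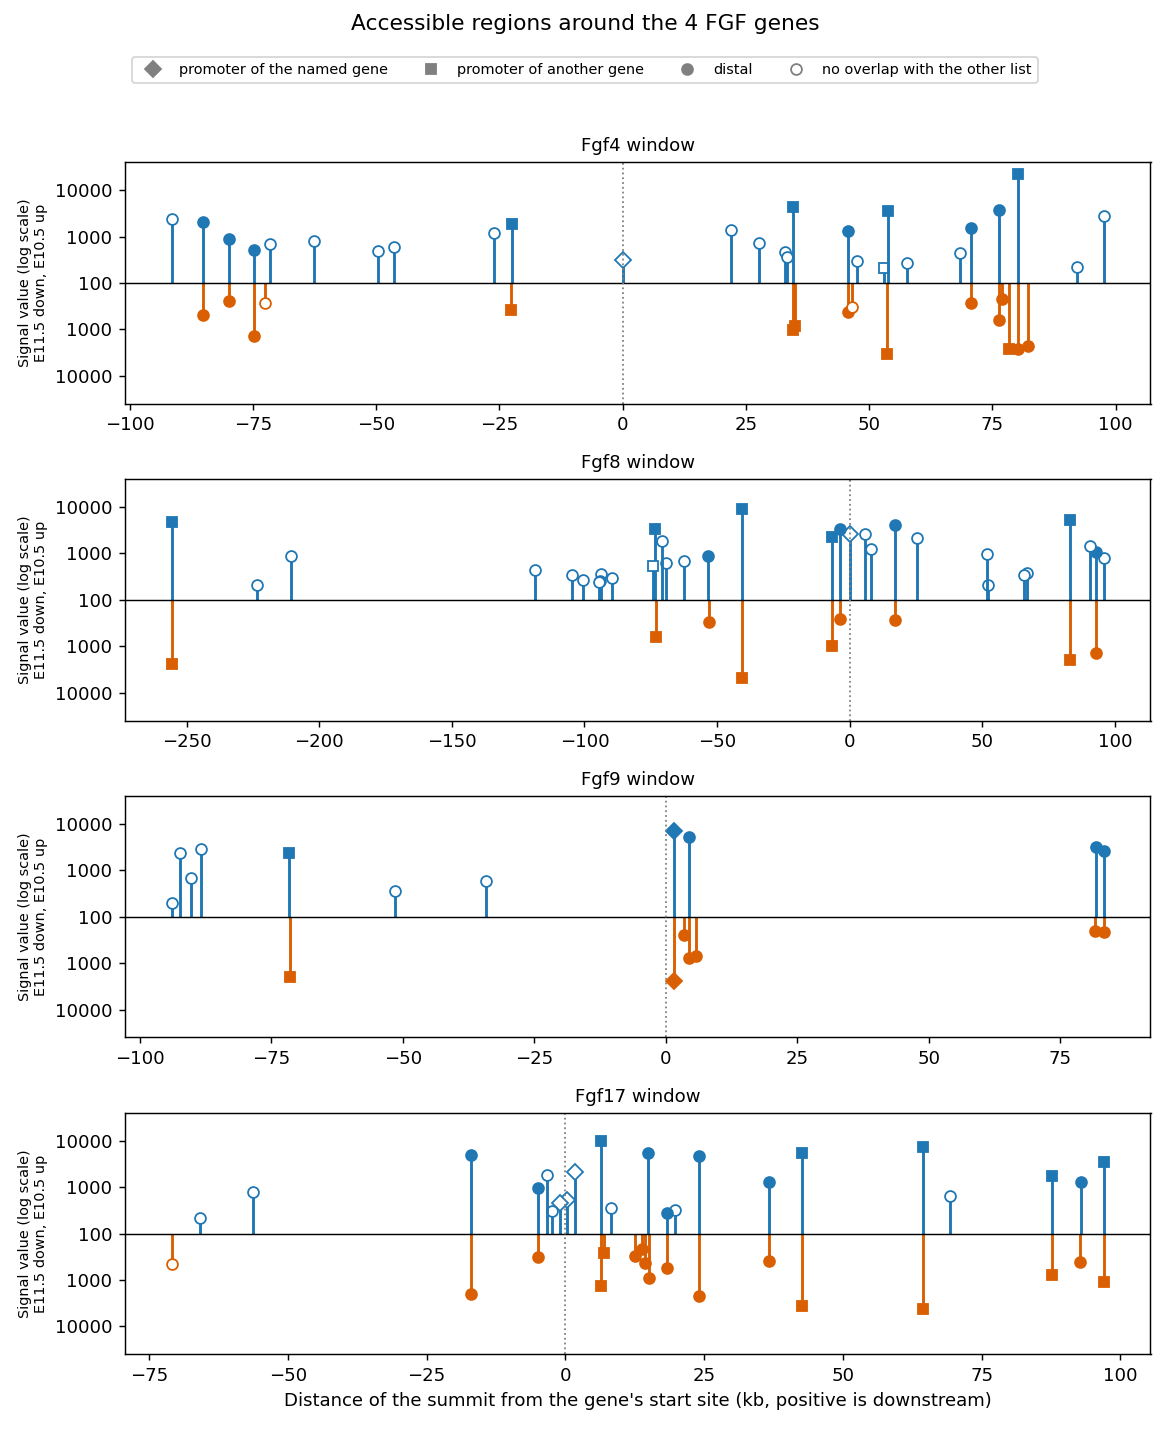
Regions in the 4 windows by distance of their summit from the gene's start site in kb (x axis, positive is downstream along the gene) and by signal value on a log scale (y axis), E10.5 upwards in blue and E11.5 downwards in orange, diamonds for promoter regions of the named gene, squares for those of other genes, circles for distal regions, open symbols for regions without overlap. Only the Fgf9 panel has a diamond below the line.

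The Fgf4 window holds 2 further ligand genes, Fgf3, which is known for its role in the inner ear, and Fgf15, the mouse counterpart of human FGF19. The window had 27 regions in the E10.5 list and 16 in the E11.5 list. Of the E10.5 regions 10 overlapped (37%, 21.5 to 55.8%), against 32.3% of the whole list. Of the E11.5 regions 14 did (87.5%, 64 to 96.5%), against 91.8% of that list. Among 21 distal E10.5 regions 6 overlapped (28.6%, 13.8 to 50%), where 23.5% of all distal E10.5 regions did.

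The strongest region of the Fgf4 window belonged to Ccnd1, the cyclin D1 gene, which drives cells into the division cycle. At E10.5 a single region of 5379 bp, 144938617 to 144943995, had a signal of 22742 and rank 88. At E11.5 the same stretch held 3 regions, 144939145 to 144940684, 144941089 to 144941897 and 144942130 to 144943735, with signals of 2599, 2676 and 2284, of which the last pair lies over 1 kb from the start site and counts as distal. The strongest E11.5 region was the promoter of LTO1 (144914678 to 144915807, signal 3331), with rank 6182, at 16.5% of the E11.5 list. Its E10.5 partner had a signal of 3573 and rank 15276, at 15.4% of the E10.5 list.

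Fgf15 and Fgf3 kept promoter regions at both stages, unlike Fgf4 between them. The Fgf15 region, 144895300 to 144897501, had an E10.5 signal of 4275 and faced 2 E11.5 regions, 144895688 to 144896170 and 144896319 to 144897237, with signals of 1015 and 836. The Fgf3 region, 144837847 to 144839490, had a signal of 1888 at E10.5, and at E11.5 144838580 to 144839053 had one of 376. Fgf4, in the middle, had the E10.5 signal of 316 given above.

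Distal regions of the Fgf4 window were spread on both sides. At E10.5 the strongest was 144937106 to 144938488 in Ccnd1 (signal 3683), with E11.5 partners at 144937542 to 144938013 (617) and 144938153 to 144938475 (226). A second Ccnd1 region of the E11.5 list, 144931886 to 144932113, had a signal of 267. Upstream, 144775957 to 144776369 (481) and 144781402 to 144781606 (243) matched stronger E10.5 regions of 2050 and 907. The order was the reverse at 144786384 to 144786976, 74.7 kb upstream. The signal was 1419 (rank 13008, at 34.6%) in the E11.5 list and 514 (rank 65697, at 66.1%) in the E10.5 list. In the long noncoding RNA gene Gm39119, 144907103 to 144907315 had a signal of 412. The 15 distal E10.5 regions without overlap had signals of 223 to 2840. The strongest of these stood 97.6 kb downstream (144958515 to 144959301) and 91.5 kb upstream (144769229 to 144770491, signal 2365), and the nearest to Fgf4, 144883023 to 144883622, was 21.9 kb downstream with a signal of 1385. No region other than the promoter region lay within 10 kb of Fgf4 in either list.

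Of the 3 E11.5 regions of the 4 windows that had no E10.5 overlap, 2 were in the Fgf4 window. They were 144788789 to 144789050 (signal 274) in the long noncoding RNA gene Gm34964 and 144907902 to 144908085 (signal 325) in Gm39119. The other one, 70712956 to 70713319 (signal 447), lay in Xpo7 in the Fgf17 window. All 3 were weaker than the median E11.5 region, whose signal was 722.

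The Fgf9 window held 11 regions of the E10.5 list and 7 of the E11.5 list. Of the E10.5 regions 5 overlapped (45.5%, 21.3 to 72%), against 32.3% of the whole list. All 7 E11.5 regions did (lower bound 64.6%), against 91.8% of that list. In the first part of the gene, 58074080 to 58076914 had an E10.5 signal of 5284 (rank 8867). At E11.5 it faced 58074128 to 58074632, 58074762 to 58075706 and 58075839 to 58076584, with signals of 251, 793 and 708. Both lists therefore marked the start and the next few kb of Fgf9, in fewer and wider pieces at E10.5.

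Beyond the gene, a pair of regions 81.7 and 83.3 kb downstream of the Fgf9 start site was present in both lists. At E10.5, 58151878 to 58153415 had a signal of 3151 and 58153808 to 58154446 one of 2604. At E11.5, 58152236 to 58152566 and 58153844 to 58154207 had signals of 206 and 209, close to the smallest of the list, which is 200. The promoter of Micu2, a mitochondrial calcium uptake gene, had signals of 2343 in the E10.5 list and of 2037 in the E11.5 list (57998770 to 57999590). Inside Micu2, 57981831 to 57982861 had an E10.5 signal of 2901 and no E11.5 overlap. It was the strongest of 6 distal E10.5 regions without overlap, whose signals went down to 202 and which all lay upstream of the gene.

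The Fgf17 window held 22 regions of the E10.5 list and 17 of the E11.5 list. Of the E10.5 regions 12 overlapped (54.5%, 34.7 to 73.1%), an interval that lies above the 32.3% of the whole list but treats neighbours as unrelated. Of the E11.5 regions 16 overlapped (94.1%, 73 to 99%), against 91.8% of that list. All 5 E10.5 promoter regions of other genes overlapped, where 86% of all E10.5 promoter regions did. Of 14 distal regions 7 did (50%, 26.8 to 73.2%), where 23.5% of all distal E10.5 regions did. The distal interval also treats neighbours as unrelated.

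The strongest E10.5 region of the Fgf17 window, 70634305 to 70637829 (signal 9949, rank 1914), covers the promoter of Dmtn, the gene of the actin-binding protein dematin, and the 3′ end of Fgf17. At E11.5 it faced 70635000 to 70635315 and 70635447 to 70636585, with signals of 265 and 1368. The strongest E11.5 region was the promoter of Nudt18, a nucleotide hydrolase gene (70577112 to 70578714, signal 4279, rank 3998), with an E10.5 signal of 7287. The Fam160b2 promoter followed with 3549 (70598897 to 70600162), where E10.5 had 5304. Promoters of Reep4 (70544969 to 70545704) and of Hr, the gene of the corepressor hairless (70554172 to 70555135), had E11.5 signals of 1115 and 770.

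Dmtn held most of the distal E11.5 regions of the Fgf17 window. The strongest was 70617792 to 70618723, 24 kb downstream of the Fgf17 start site, with a signal of 2176 against 4615 at E10.5. A single E10.5 region of 4102 bp, 70625646 to 70629747 (signal 5302), faced 4 E11.5 regions starting at 70626711, 70627777, 70628375 and 70629522, with signals of 894, 430, 218 and 302. The region at 70623911 to 70624197 had a higher signal at E11.5 (539) than at E10.5 (279), and 70605270 to 70605614 had 396 against 1312. Outside genes, 70549304 to 70549569 had 415 against 1288.

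Upstream of Fgf17, 70658636 to 70659918 in Npm2, a nucleoplasmin gene of the oocyte, had an E11.5 signal of 1976 and an E10.5 signal of 4980, and 70647111 to 70647436 had 321 against 954. Between Npm2 and Fgf17, E10.5 regions at 70644487 to 70644861 (signal 301) and 70645273 to 70646021 (signal 1795) had no E11.5 overlap. Neither did 70633460 to 70634075 in Dmtn (signal 363). The 7 distal E10.5 regions of the window without overlap had signals of 214 to 1795. The stretch of Fgf17 from its start site to the edge of the Dmtn promoter region held 2 E10.5 promoter regions and no E11.5 region.

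Over the 4 windows together, 36 of 92 E10.5 regions overlapped (39.1%, 29.8 to 49.3%), against 32.3% of the whole list. In the E11.5 list 46 of 49 regions did (93.9%, 83.5 to 97.9%), against 91.8% of that list. Distal regions overlapped in 20 of 69 cases at E10.5 (29%, 19.6 to 40.6%), where 23.5% of all distal regions did, and in 28 of 31 at E11.5 (90.3%, 75.1 to 96.7%), where 88.2% did. Apart from Fgf17 at E10.5, the share of the whole list lay inside the interval of each window.

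**Figure D4:**
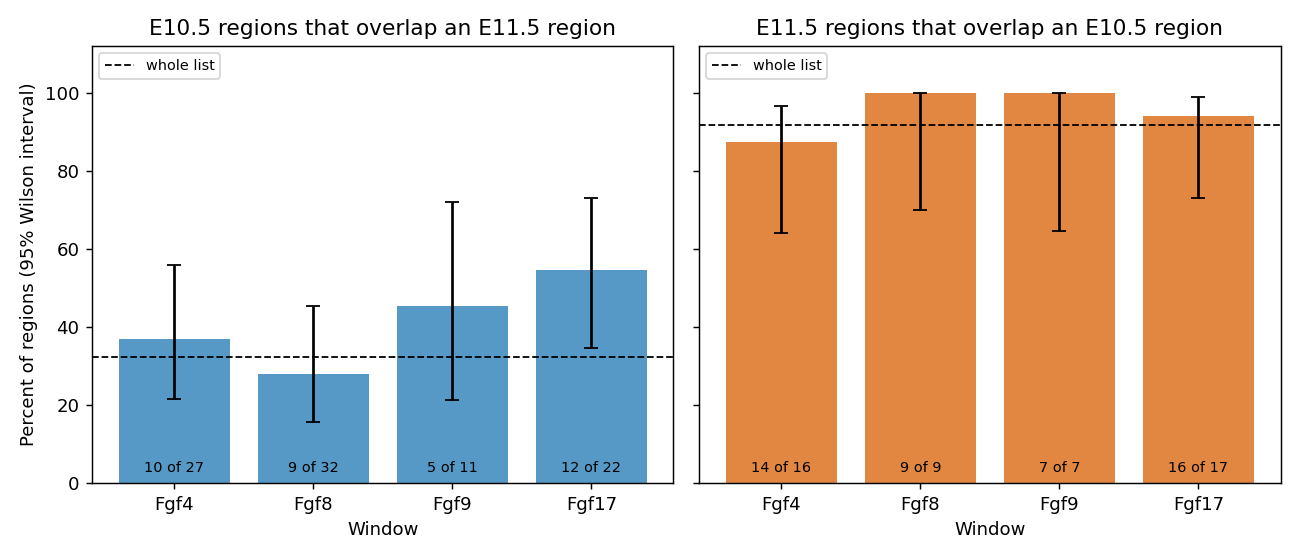
Percent of the regions in each window that share at least 1 bp with a region of the other list, for E10.5 regions (left) and E11.5 regions (right), with 95% Wilson intervals that cover counting error only and the share of the whole list as a dashed line. The E10.5 bars run from 28.1% for Fgf8 to 54.5% for Fgf17.

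Set beside the FGF family, 20 of 22 ligand genes had a promoter region in the E10.5 list and 15 in the E11.5 list. Over all protein-coding genes the shares with one were 66.2% and 59.9%. The ligand genes with one at E10.5 only were Fgf1, Fgf4, Fgf8, Fgf17 and Fgf21, and Fgf6 and Fgf13 had none at the start site used, though Fgf13 had one at another start site of the promoter table in both lists. The median summed promoter signal of the ligand genes was 1964 in the E10.5 list and 788 in the E11.5 list, against 2775 and 1245 over all protein-coding genes. Fgf10, the mesenchymal partner of the ridge FGFs, had 10791 and 8720. Fgf18, a relative of Fgf8 and Fgf17, had 14724 and 4939.

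Of 7 receptor and co-receptor genes 6 had promoter regions in both lists, and Klb, a co-receptor of endocrine FGFs, in neither. Among all 21532 protein-coding genes, 12820 had them in both lists. Fgfr1 and Fgfr2, the main receptors of the limb bud, had summed promoter signals of 12062 and 8926 in the E10.5 list and of 3771 and 3073 in the E11.5 list. All 10 feedback and target genes had a promoter region in both lists, among them Dusp6, a phosphatase that acts on ERK, with 22288 and 11348, and Spry2, a Sprouty inhibitor of receptor signalling, with 19426 and 7579. Fgf4 (316), Fgf8 (2637) and Fgf17 (3147) had less summed promoter signal at E10.5 than any of these 10 genes, the lowest being Spry1 (6858). Fgf9 (7023) lay above Spry1 and Il17rd (6865) and below the median of the 10 genes, 10308.

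**Figure D5:**
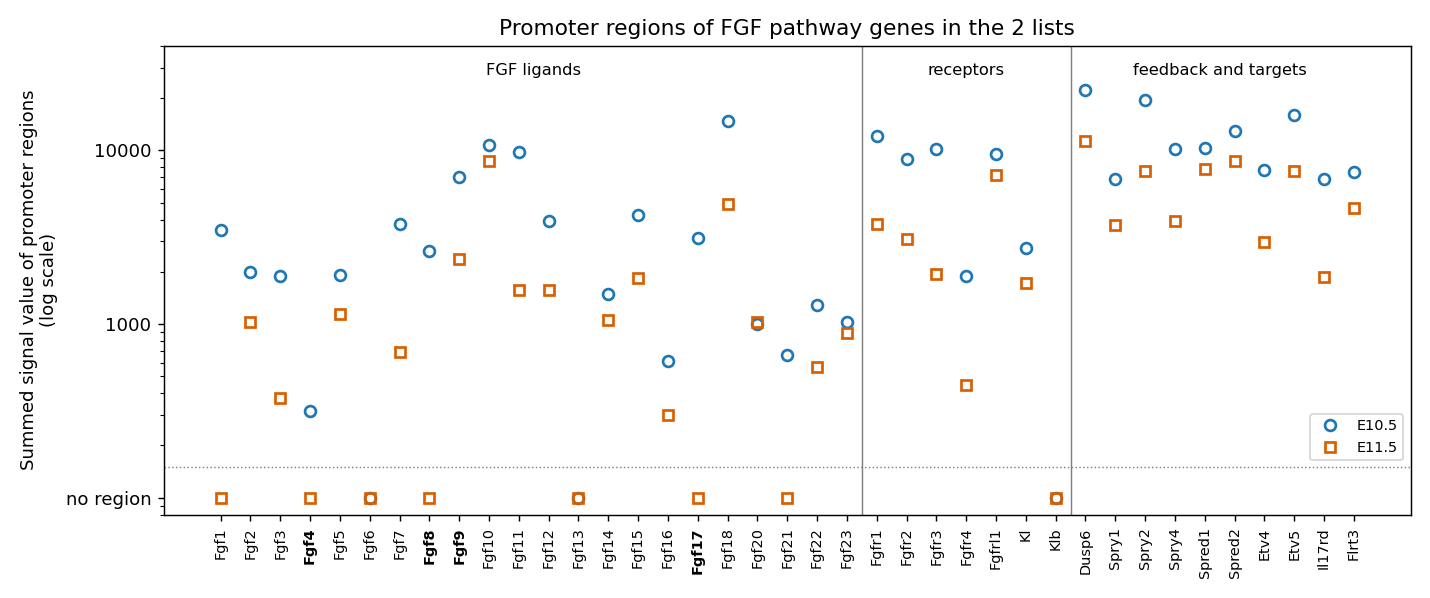
Summed signal value of promoter regions (y axis, log scale) of FGF ligand, receptor, and feedback and target genes at E10.5 (circles) and E11.5 (squares), with genes that have no promoter region on the lowest line and the 4 ridge ligands in bold. Fgf9 alone of these 4 has an E11.5 square above the lowest line.

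Among 12 regulators known from the ridge, 10 had a promoter region in the E10.5 list and 9 in the E11.5 list. Of all protein-coding genes 66.2% and 59.9% did. Wnt3, a ligand needed to form the ridge, had one at E10.5 only (signal 3407), and Sp6 and Trp63 had none at the outer start site used. Sp8 (6440 and 1484), Dlx5 (5184 and 1111) and En1 (2913 and 1122), which encode transcription factors, had promoter signal in both lists.

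The tissue was checked by markers. For promoter regions, the share over all protein-coding genes was 66.2% in the E10.5 list and 59.9% in the E11.5 list. Limb mesenchyme genes had promoter regions in 10 of 10 cases at E10.5 and 9 of 10 at E11.5 (Tbx5 without), with single-gene summed signals of 2830 to 17871 and of 0 to 8720. Ectoderm genes, which mark the layer that holds the ridge, had them in 9 of 10 (0 to 5028) and 6 of 10 (0 to 1285). Trp63, read only at its outer start site, was at 0 in both lists, and Krt5, Krt14 and Grhl2 were at 0 at E11.5. The summed promoter signal of the ectoderm list was 19395 in the E10.5 list and 3571 in the E11.5 list, and that of the mesenchyme list 96703 and 37419. It was also lower at E11.5 for muscle precursor (13249 and 2775), endothelium (4446 and 2207), nerve and glia (10896 and 6960) and other organs (6374 and 0). The median over all protein-coding genes was 2775 and 1245. The part of the ectoderm share in the ridge FGF promoters was not tested. Promoter regions of the endothelium list numbered 3 of 5 and 1 of 5, and of the blood list 3 of 5 in each. Those of the muscle precursor list numbered 5 of 5 and 2 of 5, and of the nerve and glia list 5 of 5 and 4 of 5. For 8 genes of other organs the numbers were 3 and 0. The counts of ectoderm at E11.5, endothelium at E10.5 and blood in both lists stood near the share of all genes. Those counts therefore do not set a tissue apart. Blood was the one of these marker lists whose summed promoter signal was higher in the E11.5 list (7586, against 7151). Within it Tal1 (1151 and 2779) and Nfe2 (1115 and 2009), which encode blood transcription factors, were higher there and Klf1 (4885 and 2798), an erythroid factor gene, was lower. Gata1 and Alas2 were at 0 in both lists, though Gata1 had an E11.5 region at another start site of the promoter table. The reverse held for Tbx4 at E11.5 and Nphs1 at E10.5, which had a region at the outer start site but none at the start site of that table. Whether blood cells bear on the FGF values was not tested.

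The genes most like each ligand gene were sought among those with the same promoter presence in both lists, by Euclidean distance over 4 values, the log2 of the number of regions within 100 kb and of the summed promoter signal in each list, each plus 1. For Fgf8, among 1443 genes, they were Hand1 (distance 0.08), Slc2a5 (0.12) and Cul9 (0.31). For Fgf4 they were Dqx1 (0.10), Tulp2 (0.15) and Fam83e (0.22), and for Fgf17 Wfikkn1 (0.22), Kremen2 (0.23) and Asic4 (0.25). Fgf9, compared among 12819 genes, was closest to Zfp692 (0.18), Zfp12 (0.24) and Zfp629 (0.24). Hand1 had 26 and 8 regions within 100 kb, as Fgf8 did, and an E10.5 promoter signal of 2795.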

How the data were processed

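ATAC-seq regions of 2 stages were compared, as 1 narrowPeak list per stage on build mm10, per the file headers. The submitters' processing notes name cutadapt, Bowtie2, SAMtools, deepTools and Genrich, without roles or versions. How replicates were joined and Tn5 cuts were shifted is not given in the sources used here. The deposited signal value and deposited −log10 p-value of each peak are the authors', and serve to describe peaks and to rank them within a list. Values of both lists are also set side by side as deposited, with no scaling for depth added, so a higher or lower signal between lists is descriptive only. The deposited score was not used, and the q-value column of the deposited lists is unfilled in 100% of rows.

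Gene positions came from RefSeq on GRCm38.p6, and strands from its promoter table or, by symbol, from GENCODE M1, for 21532 of 21883 protein-coding genes (98.4%). NCBIM37 coordinates were not used. The start site is the outer end of the gene. Autosomes 1 to 19 and both sex chromosomes were used, in 1-based coordinates. Overlap means at least 1 bp, and overlap counts were tested on simulated data against bedtools 2.31.1. Calculations used Python 3.11.15, pandas 2.3.3 and scipy 1.17.1.

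The genes, lists and rules were chosen with earlier results of these data known. Named regions are each gene's promoter regions, all E11.5 regions, and the 3 strongest E10.5 regions and those within 10 kb of the start site in each window; any other distal E10.5 region named was chosen after its values were seen. Alternatives covered the threshold, list length, overlap, promoter width, window width and ranking. Depth is unknown, so Wilson intervals cover counting error only.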

Additional observations from a re-analysis of the deposited data

How the results depend on the processing

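No paired analysis was possible because the peaks of a stage were deposited jointly for its replicates, and no replicate could be left out. Unknown depth limits every count. Keeping peaks with a −log10 p of 5 or more left 55 regions of the E10.5 list and 24 of the E11.5 list in the 4 windows, by construction fewer, and 3 of the 4 genes had an E10.5 promoter region. With the E10.5 list reduced by signal there were 42 E10.5 regions, the overlapping shares were 71.4% at E10.5 and 81.6% in the other list, and 3 genes had an E10.5 promoter region. Reduced by −log10 p, these values were 36, 75%, 75.5% and 1. Reciprocal overlap of 50% gave 15.2% and 28.6%, and summits within 250 bp gave 69.4% of E11.5 regions. Windows of 50 kb on either side held 54 and 28 regions, and windows of 200 kb held 154 at E10.5. The reductions leave the E11.5 list as it is, so its counts were not recomputed under them. The remaining 19 such values kept to their criterion, which was 1.5 times for counts, the interval for shares and the same number for genes. The nearest E11.5 regions to the start sites of Fgf4, Fgf8 and Fgf17 lay beyond 2 kb, so the settings that follow could not add any of these genes. The number of genes with an E11.5 promoter region was 1 under the stricter threshold and with promoters within 500 bp or 2 kb. With the start sites of the promoter table, which moved that of Fgf9 alone, it was also 1. These start sites, and the Fgf8 window without its added interval, were chosen after seeing the data.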

Other observations

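Fbxw4, downstream of Fgf8, is known as a gene whose introns hold enhancers of Fgf8, and most of it lies beyond the Fgf8 window, so its whole body was read after the window values had been seen. Over its 82.3 kb (chromosome 19, 45578254 to 45660520) the E10.5 list held 14 regions and the E11.5 list 2. Beyond the window there were 10 E10.5 regions, with signals of 270 to 2355, and 0 of them overlapped an E11.5 region, where 23.5% of all distal E10.5 regions did. The strongest were 45615103 to 45616590 (signal 2355), 45581323 to 45582895 (2187) and 45607418 to 45608211 (2162), which lay 127, 161 and 135 kb downstream of the Fgf8 start site. Both E11.5 regions of Fbxw4 lay within the window, at its promoter and 92.8 kb downstream of the Fgf8 start site.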
